A study of Gasterosteus aculeatus with 29 samples.

Results

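Brain gene expression was compared between female three-spined sticklebacks (Gasterosteus aculeatus) that had or had not met predation risk themselves as juveniles. The comparison used the 16 libraries labelled female out of 29 in the series, each from the whole brain of 1 fish. Of these females, 9 carried the label of own exposure and 7 did not. The fish were chosen by their labels alone, not by any measured value. The study crossed the offspring's own experience with that of the father, who was or was not exposed to predation risk while he cared for the brood. Among females with own exposure, 5 had an unexposed father (personal only) and 4 had an exposed father (both). Among females without it, 2 had an unexposed father (neither) and 5 had an exposed father (paternal only). Strain and age are not given in the sources used here.

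The females came from 10 fathers, and sisters are not independent fish. The personal only group held 2 daughters of M8, 1 of M31 and 2 of M41. The both group held 2 daughters of M43, 1 of M42 and 1 of M11. The neither group was a daughter of M20 and a daughter of M33, and the paternal only group held 2 daughters of M9 and 1 each of M15, M42 and M43. The design placed offspring of each father in both personal conditions, but among the sequenced females only 2 fathers, M42 and M43, had daughters in both personal conditions. For the daughters of unexposed fathers, own exposure and family therefore cannot be told apart. All comparisons treated father as a random block, which allows sisters to resemble each other.

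In sticklebacks the father alone guards the nest and tends the eggs and fry. Fish sense predators by sight and smell, and the brain starts the hormonal stress response through the hypothalamus, pituitary and interrenal tissue, which releases cortisol. Early experience of predators is known to alter later antipredator behaviour in this species. A whole brain averages over many regions and cell types, so a change limited to few cells is diluted. In such bulk tissue, fewer cells of a type and less RNA per cell cannot be told apart.

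Values are log2 CPM, the log2 of read counts scaled to library size with a small prior, as the authors deposited them. Reads per library in the gene table, worked out from the whole steps in the values, ranged from 2244609 to 55155451 (median 8293349) in exposed females and from 3313717 to 13464189 (median 4900750) in unexposed females. No female library stood apart. The interquartile range over genes of each library's difference from the median library was 0.274 to 0.443 log2 units in exposed and 0.249 to 0.389 in unexposed females. The leading sex-differing gene, ENSGACG00000012640, was chosen from these data by the sex labels, so it is no separate check of them. It had 1.71 to 2.93 log2 CPM in the 16 females. The males had 4.74 to 5.71, except 1 library labelled male with 2.49, which enters only the comparison of the sexes below. No source used here pairs the stickleback gene identifiers with symbols. Genes are therefore named by identifier, their functions are not given, and the brain label was not checked against marker genes. By rule, at most 2 with higher and 2 with lower values are named per comparison. A few others, chosen after their values were seen, are marked as such.

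The fish did not separate by own exposure along the leading axes of variation. Over 14307 genes with a mean of at least 1 log2 CPM in females, the leading principal component held 23% of the variance and the next 16.2%. Exposed females lay between -25.6 and 30.9 on the leading component (median 12.8), and unexposed females between -38.5 and 26.4 (median -7.60). On the next component the ranges were -24.4 to 36.5 and -28.3 to 22.1. Both sets of ranges overlap over most of their length. The sisters from M41 lay close together at 30.9 and 29.6 on the leading component, while the sisters from M9 lay at -7.60 and 26.4.

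**Figure D1:**
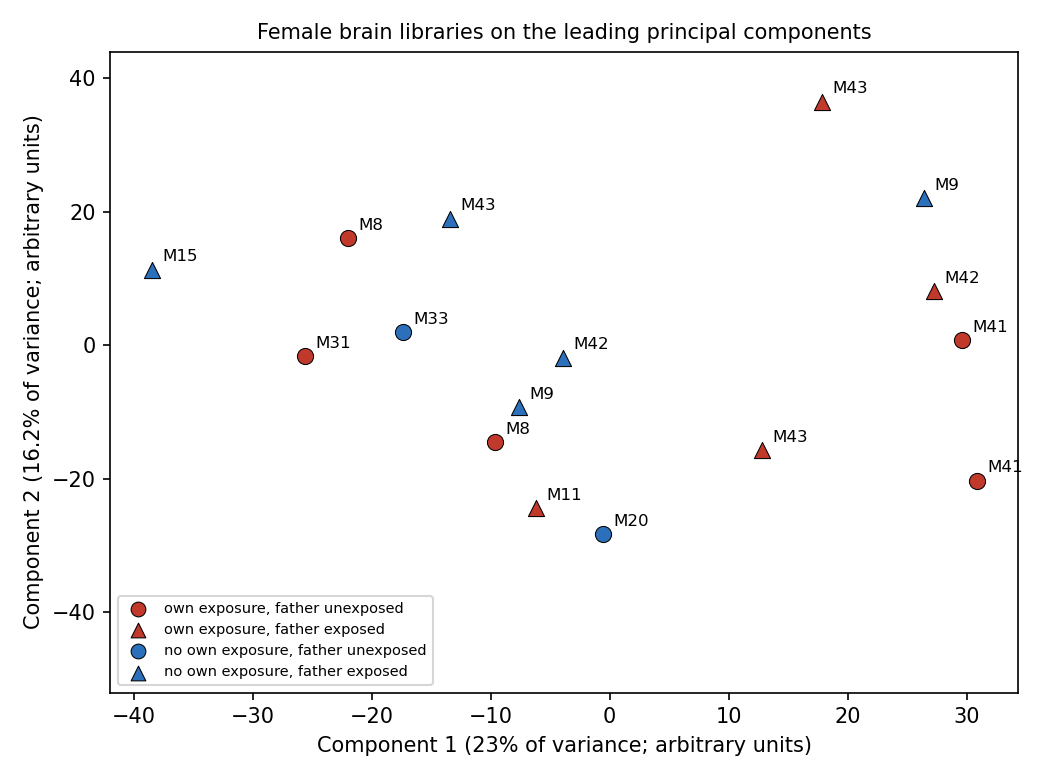
Each point is 1 female brain library, placed by its scores on the 2 leading principal components (arbitrary units) and labelled with its father; red marks own exposure, blue none, triangles an exposed father. Red and blue points are intermingled, with scores on component 1 of -25.6 to 30.9 and -38.5 to 26.4.

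Own exposure was then tested gene by gene, with the father's exposure in the model. In limma, 0 of 16660 tested genes passed an adjusted p of 0.05 (0%), and the smallest adjusted p was 0.998. Before adjustment, 581 genes (3.49%) had a p under 0.05, 256 of them higher (1.54%) and 325 lower (1.95%) in exposed females, and 66 (0.396%) had a p under 0.01. A share of 5% would be 833 genes. Limma-voom on the reads also called 0 genes, against 1028 with an unadjusted p under 0.05, and gave a smallest adjusted p of 0.0603. Across genes, the median size of the difference was 0.0904 log2 units and the median standard error 0.129. At that standard error, a gene would have to differ by 0.884 log2 units, or 1.85-fold, to pass on its own.

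The size of differences that the data allow depended on the level of the gene. Per gene and without adjustment, the 95% confidence interval of the difference lay within 2-fold either way for 14488 of the 16660 genes (87%) and within 1.5-fold for 12023 (72.2%). Among the 3576 genes with a mean of 5 log2 CPM or more, 98.7% had intervals within 2-fold and 95.4% within 1.5-fold. Among the 2353 genes with a mean under 1 log2 CPM these shares were 40.7% and 6.97%. For most abundant genes, differences beyond 2-fold thus lay outside the interval, and for most genes of low level they did not. Estimates over 2-fold were found for 384 genes, 306 of them with a mean under 1 log2 CPM and 4 with a mean of 5 or more. None of them passed the test.

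The direction of the small differences also varied with level. Of the abundant genes, with a mean of 5 log2 CPM or more, 66.3% had higher estimates in exposed females, with a median difference of 0.0313 log2 units. Of the genes with a mean under 1 log2 CPM, 36.5% had higher estimates, with a median of -0.135. The shift of these classes was not tested. The exposed females included both the shallowest and the deepest female library, and the part of depth in these directions was not tested.

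**Figure D2:**
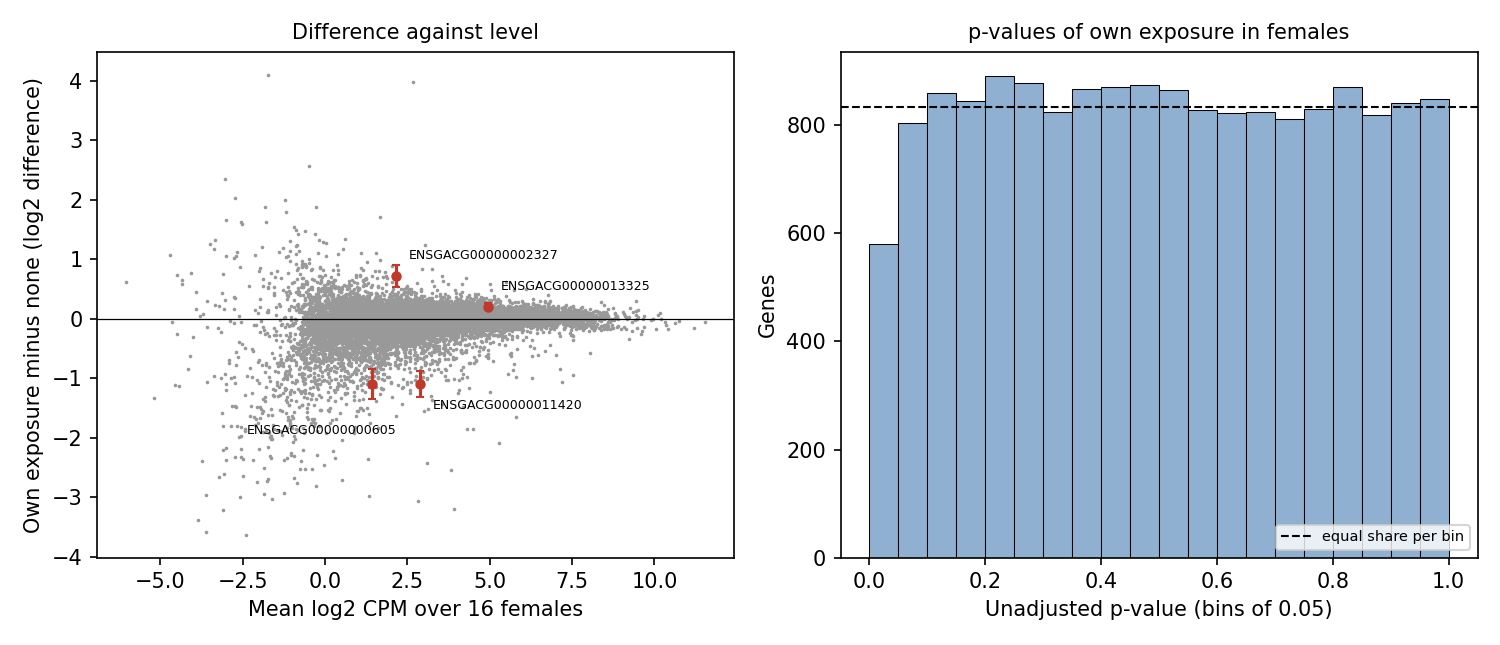
Left, the difference between exposed and unexposed females (log2 units) against the mean log2 CPM over the 16 females for 16660 genes, with the 4 named genes in red and bars of 1 standard error; right, the number of genes per bin of unadjusted p. Differences narrow as the level rises, and the bin of smallest p-values holds 581 genes, below the dashed line of 833.

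The 2 genes with the smallest p-values on each side are described by their values, since none passed the adjusted threshold. ENSGACG00000011420 was the closest. It ranged from 1.52 to 3.07 log2 CPM (median 2.40) in the 9 exposed females and from 2.97 to 4.02 (median 3.46) in the 7 unexposed females. Of the exposed fish, 8 lay below the lowest unexposed fish, the exception being the daughter of M31, and the lowest exposed fish were the sisters from M41 at 1.52 and 1.57. The means were 2.38 ± 0.54 (SD, n = 9) and 3.51 ± 0.33 (SD, n = 7), a fitted difference of -1.09 ± 0.22 (SE), with a 95% interval of -1.55 to -0.64 and an adjusted p of 0.998 in limma. The gene had 32 to 565 reads per female library. Limma-voom gave -1.23 ± 0.18 for it (adjusted p = 0.0603).

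ENSGACG00000000605 came next among genes with lower values. It ranged from 0.272 to 2.13 log2 CPM (median 0.769) in exposed and from 1.57 to 2.74 (median 1.69) in unexposed females. The 4 fish with both exposures lay at 0.272, 0.742, 0.452 and 0.338, below every other female, whereas 2 fish of the personal only group, at 1.58 and 2.13, lay within the unexposed range. The fitted difference was -1.09 ± 0.24 (adjusted p = 0.998), from only 6 to 161 reads per female library.

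On the other side, ENSGACG00000002327 ranged from 1.71 to 2.93 log2 CPM (median 2.56) in exposed and from 1.08 to 2.63 (median 1.81) in unexposed females. The ranges overlapped, and 2 exposed fish lay above the highest unexposed fish, a daughter of M42. The difference was 0.72 ± 0.19, or 1.65-fold (adjusted p = 0.998). ENSGACG00000013325 differed less but varied little within groups. It ranged from 4.91 to 5.17 log2 CPM (median 5.05) in exposed and from 4.69 to 4.98 (median 4.85) in unexposed females, and 6 of 9 exposed fish lay above all unexposed ones. Its difference was 0.21 ± 0.058, or 1.15-fold (adjusted p = 0.998).

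**Figure D3:**
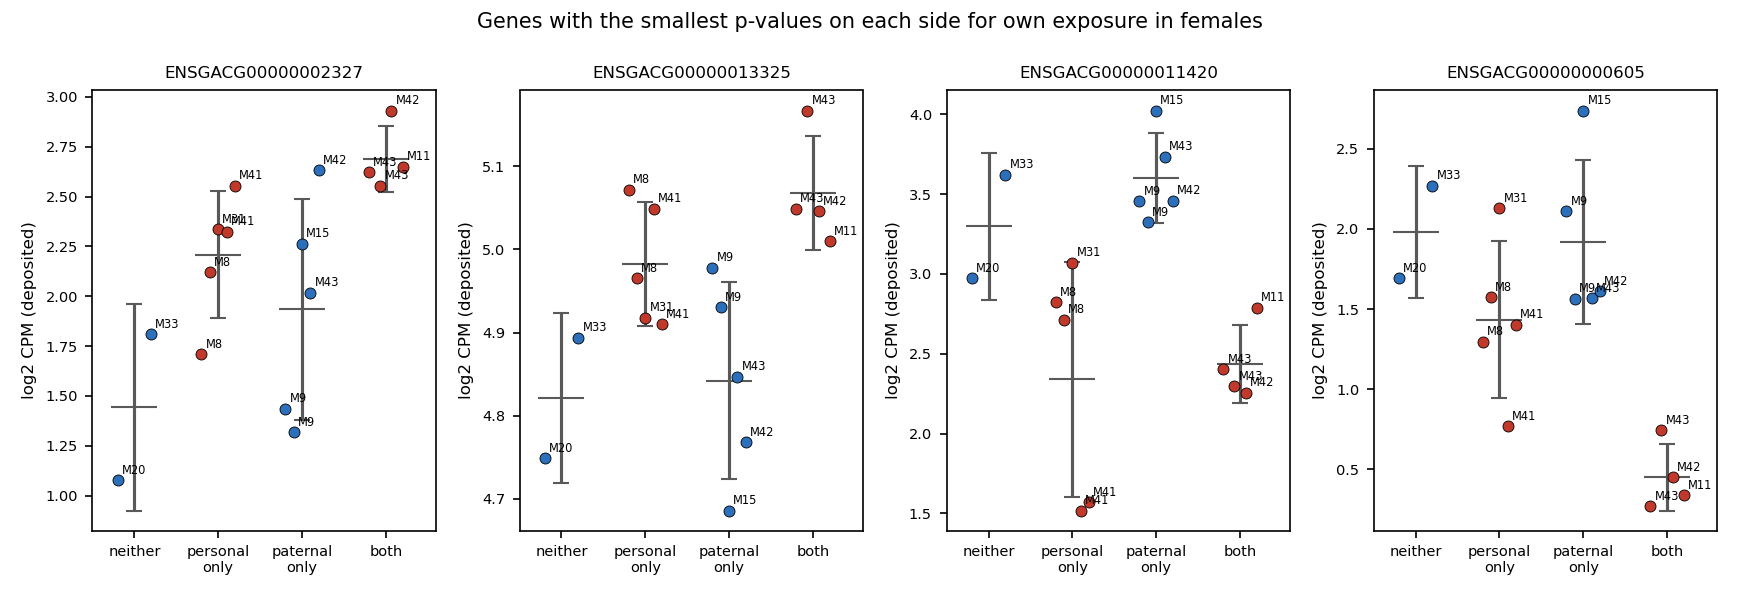
Deposited log2 CPM of the 2 genes with the smallest p-values on each side (higher and lower) for own exposure, 1 point per female labelled with its father, in the 4 groups; red marks own exposure, and grey bars show mean ± SD (n = 2, 5, 5 and 4 from left to right). For ENSGACG00000011420 the exposed fish lie at 1.52 to 3.07 and the unexposed at 2.97 to 4.02.

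Sisters of the families with both personal conditions also entered these fits, and their values are given as a description. For ENSGACG00000011420 the exposed daughter of M42 had 2.26 log2 CPM and her unexposed sister 3.46. The exposed daughters of M43 had 2.40 and 2.30, and their unexposed sister 3.74. For ENSGACG00000000605 the differences within these families were -1.16 (M42) and -1.06 (M43). For ENSGACG00000002327 they were 0.30 and 0.57, and for ENSGACG00000013325 they were 0.28 and 0.26. Each gene thus went the same way in both families. With father as a fixed term, where own exposure rests on these 5 fish, ENSGACG00000011420 differed by -1.31 ± 0.15 (adjusted p = 0.0961) and limma called 0 genes. That fit held all 16 females, so its spread also drew on sisters of other families. With the daughters of M42 and M43 alone, limma called 0 genes at a smallest adjusted p of 0.745 over all genes, and 807 had an unadjusted p under 0.05.

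The libraries were sequenced on 5 lanes, and the leading genes kept their direction within the 4 lanes that held both conditions. The genes were chosen for small p-values in these same fish, so this agreement is a description and not a separate test. For ENSGACG00000011420 the exposed mean minus the unexposed mean was -0.84, -1.28, -1.36 and -0.68 log2 units in lanes 4, 5, 6 and 7. For ENSGACG00000000605 it was -1.32, -0.68, -1.76 and -0.24. For ENSGACG00000002327 it was 0.73, 0.85, 0.65 and 1.25, and for ENSGACG00000013325 it was 0.08, 0.10, 0.26 and 0.23. Lane 8 held a single female. With lane in the model limma called 0 genes, and 483 had an unadjusted p under 0.05.

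Separation of single genes by own exposure was rare. The exposed and unexposed females did not overlap in 1 of 16660 genes with exposed fish higher (0.006%) and in 0 with exposed fish lower (0%). That gene, ENSGACG00000011094, chosen after its values were seen, ranged from 4.39 to 4.79 log2 CPM in exposed and from 4.05 to 4.38 in unexposed females. The gap between the groups was 0.0045 log2 units, and the difference was 0.21 with an adjusted p of 0.998 in limma.

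Among daughters of unexposed fathers, own exposure was compared between 5 personal only and 2 neither fish, which came from different families. Limma called 0 of 16660 genes (0%), and 441 (2.65%) had an unadjusted p under 0.05, 242 higher (1.45%) and 199 lower (1.19%), with 84 (0.504%) under 0.01. The count of 441 was 801 without the daughters of M8. Limma-voom called 0, and 572 had an unadjusted p under 0.05. ENSGACG00000000062 had 4.66, 4.74, 4.72, 4.96 and 4.83 log2 CPM in personal only and 4.25 and 3.96 in neither fish. All exposed fish lay above both unexposed ones, a difference of 0.67 ± 0.13 (adjusted p = 1). ENSGACG00000014058 had 3.11, 3.19, 2.97, 3.23 and 3.05 against 2.45 and 2.59, which gave a difference of 0.59 ± 0.13 at an adjusted p of 1.

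On the lower side in personal only fish, ENSGACG00000016177 had 3.34, 3.18, 3.54, 2.54 and 3.36 log2 CPM against 3.93 and 4.23 in neither, a difference of -0.88 ± 0.22. ENSGACG00000019887 had 4.91, 4.89, 4.72, 5.05 and 5.27 against 5.57 and 5.44, a difference of -0.55 ± 0.14 (adjusted p = 1 for each). In each of these 4 genes the groups did not overlap. With only 2 neither fish this was common, with 618 of the 16660 tested genes (3.71%) wholly higher and 698 (4.19%) wholly lower in personal only. Without the daughter of M33, limma called 10 genes, all 10 higher in personal only fish, at a smallest adjusted p of 0.004. The daughter of M20 was then the only neither fish, so the fit takes its spread from the other groups. Of the 10 genes, 9 had 0 reads in the daughter of M20 and 1 had 1 read, and all had a mean under 1 log2 CPM in females. The leading one, ENSGACG00000013107, chosen after its values were seen, had 0 reads in the daughter of M20, 47 in the daughter of M33 and 42, 21, 27, 13 and 43 in the personal only fish. The exposed sons of M20 had 59 and 5 reads of it, but in libraries of 30048988 and 47411814 reads, against 3313717 for their sister. These reads cannot be compared directly across such depths. In log2 CPM the sons had -0.135 and -4.132, below the 0.2255 to 1.6 of the personal only fish. Among females only the daughter of M20 was that low, and the others had -0.02932 to 2.59. Low values were also seen in some sons of other fathers. Sons of M15 had -6.766 and -2.033, those of M8 -0.6996 and -6.766, and the unexposed sons of M11 -2.159 and -1.669. The son of M8 at -6.766 was a male library that stood apart from the rest. Sons of M33 had -0.7179 and 0.8414, that of M31 0.3532 and that of M42 0.6363. The library labelled male with female values, from M11, had 1.494. The part of sex in these values was not tested. Leaving out the daughter of M20 instead gave 0 called genes.

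Among daughters of exposed fathers, own exposure was compared between 4 both and 5 paternal only fish. Limma called 0 of 16660 genes (0%), and 835 (5.01%) had an unadjusted p under 0.05, 361 higher (2.17%) and 474 lower (2.85%), with 132 (0.792%) under 0.01. The count of 835 was 525 without the daughter of M15 and 1293 without the daughters of M9. Limma-voom called 0, and 1187 had an unadjusted p under 0.05. ENSGACG00000009205 had 3.26, 3.43, 3.26 and 3.42 log2 CPM in both and 2.77, 2.72, 2.78, 2.93 and 2.72 in paternal only fish. The groups did not overlap, and the difference was 0.54 ± 0.11, or 1.46-fold (adjusted p = 0.961). ENSGACG00000001118 had 5.49, 5.26, 5.08 and 5.35 against 4.91, 4.90, 4.95, 4.89 and 4.71, which gave a difference of 0.42 ± 0.10 at an adjusted p of 0.961.

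On the lower side in fish with both exposures, ENSGACG00000000605 led, at -1.42 ± 0.28, or 2.68-fold lower (adjusted p = 0.961). ENSGACG00000014793 had 1.64, 2.13, 2.12 and 1.99 log2 CPM in both and 2.55, 2.66, 2.62, 2.64 and 3.21 in paternal only fish, a difference of -0.79 ± 0.17 (adjusted p = 0.961). These groups did not overlap either. Of the 16660 tested genes, 90 (0.54%) were wholly higher and 98 (0.588%) wholly lower in the fish with both exposures.

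The deepest female library, the daughter of M42 with both exposures, and the shallowest, the daughter of M11, both stood in this comparison. Without them, a setting chosen after seeing the data, limma called 2 genes, both lower in the remaining fish with both exposures, the sisters from M43. ENSGACG00000007024 had -1.83 and -2.39 log2 CPM in these sisters, 2.60 and 1.21 in the fish left out and 2.09, 2.69, 1.39, 2.12 and 1.99 in paternal only fish. ENSGACG00000014802 had 1.33 and 1.32 in the sisters, 3.38 and 4.01 in the fish left out and 4.92, 5.02, 4.73, 4.94 and 3.94 in paternal only fish. In each gene only the exposed sisters from M43 were low, and their unexposed sister, with 2.12 and 4.94, lay among the other paternal only fish. With all fish the differences were -2.04 and -2.14 (adjusted p = 0.961 for each), and without these libraries -4.16 ± 0.52 and -3.42 ± 0.43 (adjusted p = 0.0157 for each). Both genes were chosen after their values were seen.

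The difference between these effects tests whether a daughter's own exposure went with other changes when her father had been exposed. Limma called 0 of 16660 genes (0%), and 587 (3.52%) had an unadjusted p under 0.05, 318 higher (1.91%) and 269 lower (1.61%), with 88 (0.528%) under 0.01. Limma-voom called 0, and 745 had an unadjusted p under 0.05. ENSGACG00000004182 had -0.24 and 0.25 log2 CPM in neither, 2.73, 3.15, 1.55, 1.65 and 2.14 in personal only, 3.26, 3.61, 1.99, 4.12 and 2.96 in paternal only and 2.05, 1.17, 2.41 and 0.08 in both. The neither fish were low and the single-exposure groups high, while the fish with both exposures ranged from the neither level into that of the single-exposure groups. The difference of effects was -3.98 ± 0.77 log2 units (adjusted p = 1). ENSGACG00000004186 had 3.43 and 3.81 in neither, 4.38 to 6.13 in personal only, 4.78 to 6.80 in paternal only and 3.83 to 5.25 in both, at -3.03 ± 0.69 (adjusted p = 1).

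The opposite pattern led on the other side. ENSGACG00000016177 had 3.93 and 4.23 log2 CPM in neither, 2.54 to 3.54 in personal only, 3.05 to 3.30 in paternal only and 3.48 to 3.81 in both, at 1.31 ± 0.27. ENSGACG00000004180 had 3.62 and 3.19 in neither, 2.45 to 3.00 in personal only, 2.38 to 2.86 in paternal only and 2.69 to 3.36 in both, at 1.22 ± 0.26 (adjusted p = 1 for each). These estimates rest on the 2 neither fish. Without the daughter of M33, limma called 9 genes at a smallest adjusted p of 0.015, and all 9 were among the 10 genes called in daughters of unexposed fathers under the same omission. Without the daughter of M20 it called 0.

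**Figure D4:**
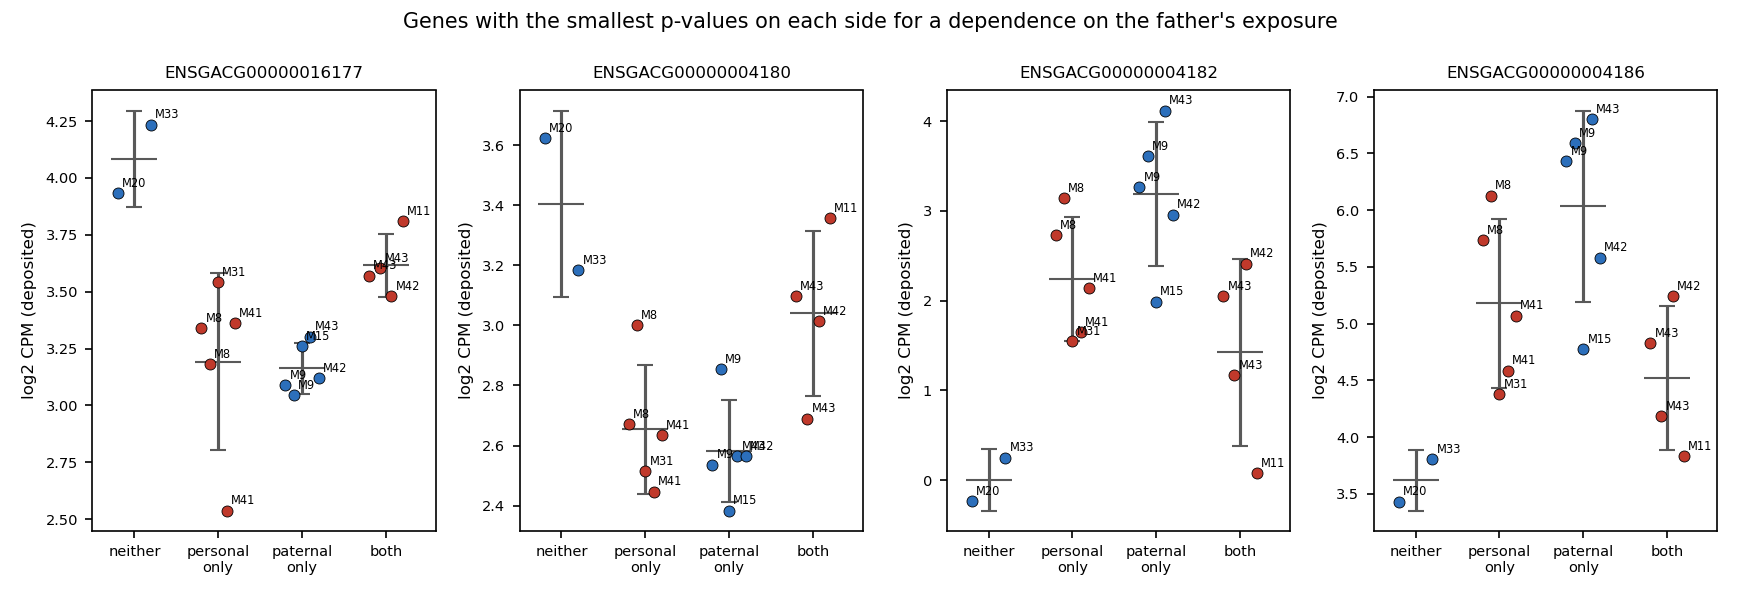
Deposited log2 CPM of the 2 genes with the smallest p-values on each side for a dependence of own exposure on the father's exposure, 1 point per female labelled with its father; red marks own exposure, and grey bars show mean ± SD (n = 2, 5, 5 and 4 from left to right). For ENSGACG00000004182 the neither fish lie at -0.24 and 0.25 and the paternal only fish at 1.99 to 4.12.

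Sons of the unexposed fathers took no part in the female fits, and their values are given as a description. For ENSGACG00000004182 the sons of M20, both with own exposure, had 0.21 and 0.01 log2 CPM, close to the -0.24 of their unexposed sister. The sons of M33 had 2.91 without and 2.25 with own exposure, against 0.25 in their unexposed sister. For ENSGACG00000004186 the sons of M20 had 3.52 and 3.45, where their sister had 3.43, and the sons of M33 had 5.93 and 5.47, where their sister had 3.81. In the family of M20 the exposed sons and the unexposed daughter had like levels. In that of M33 the sister was lower than both brothers. The unexposed sons of M8 had 1.245 and 0.16 for ENSGACG00000004182, against 2.73 and 3.15 in their exposed sisters. For ENSGACG00000004186 they had 4.48 and 4.37, against 5.74 and 6.13, and the son with 4.37 was a library that stood apart. The exposed son and daughter of M31 had 1.435 and 1.55 for the former gene and 4.88 and 4.38 for the latter. In the families of M20 and M8 own exposure and sex cannot be told apart. The part of family and of sex in these values was not tested.

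Across all genes, the effects of own exposure showed little correlation between daughters of unexposed and of exposed fathers. These groups share no fish. The median size of the effect, 0.137 and 0.114 log2 units, was below the median standard error, 0.215 and 0.162. Such uncertain estimates correlate weakly in any case, so the values below cannot show whether the effects differ by the father's exposure. Over 16660 genes Pearson's r was -0.0394 and Spearman's rho -0.00129, and 49.9% of genes had the same sign. Over the 3576 genes with a mean of 5 log2 CPM or more, r was 0.101, rho -0.0354 and the same-sign share 50.4%. The differences between sisters in the families of M42 and M43 had an r of 0.178, a rho of 0.0866 and a same-sign share of 51.3% over all tested genes, and an r of 0.0282 over the abundant ones. Genes are not independent replicates, and these values describe the fish sampled.

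Males, with 7 exposed and 6 unexposed fish, were used to ask whether the female effect differed from that in the other sex. The test was the mean own-exposure effect in females minus that in males. Limma called 0 of 16660 genes (0%), and 562 (3.37%) had an unadjusted p under 0.05, 253 higher (1.52%) and 309 lower (1.85%) in females than in males, with 59 (0.354%) under 0.01. Limma-voom called 0, and 795 had an unadjusted p under 0.05. ENSGACG00000009205, which led in daughters of exposed fathers, also led here. It ranged from 2.93 to 3.44 log2 CPM (median 3.26) in exposed and from 2.72 to 3.25 (median 2.78) in unexposed females, but from 2.50 to 3.30 (median 3.21) in exposed and from 3.21 to 4.298 (median 3.45) in unexposed males. The male at 4.298 was the library that stood apart. Exposed fish were mostly higher among females and lower among males, a difference of effects of 0.75 ± 0.19 (adjusted p = 0.943). Within females the difference was 0.54 ± 0.11 in daughters of exposed fathers and -0.016 ± 0.14 in daughters of unexposed fathers. The daughters of exposed fathers entered both comparisons that this gene led.

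ENSGACG00000013199 had a difference of effects of 2.07 ± 0.53, with medians of 4.14 log2 CPM in exposed and 3.58 in unexposed females and 3.21 and 5.07 in the corresponding males. The highest unexposed males were the sons of M11, at 6.329 and 6.281. The others had 5.165 and 4.183 (M8), 4.969 (M42) and 3.152 (M33), and the one at 5.165 was the library that stood apart. The exposed library of M11 with female values had 4.055. With lower effects in females, ENSGACG00000004664 differed by -1.20 ± 0.32 and ENSGACG00000016876 by -0.65 ± 0.19 (adjusted p = 0.943 for each of the 3 genes). The males include a library that stood apart from the rest and the one with female values of sex-differing genes. The former was the lowest unexposed male for ENSGACG00000004664 (1.323 log2 CPM) and ENSGACG00000016876 (2.32). Without these 2 libraries, limma again called 0 genes, and 433 had an unadjusted p under 0.05. Over all alternatives the difference of effects was 0.521 to 0.846 for ENSGACG00000009205. It was -1.366 to -0.750 for ENSGACG00000004664 and -0.765 to -0.459 for ENSGACG00000016876. With father as a fixed term, the difference for ENSGACG00000013199 was 0.66 ± 0.59 (adjusted p = 1), less than that without the fixed term.

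The genes that led in females were also examined in males, which took no part in choosing them. In a fit of males alone, ENSGACG00000011420 differed by 0.49 ± 0.43 between exposed and unexposed fish, ENSGACG00000000605 by -0.13 ± 0.27, ENSGACG00000002327 by -0.44 ± 0.22 and ENSGACG00000013325 by -0.04 ± 0.13 (adjusted p = 0.75, 0.86, 0.75 and 0.917 in limma). Thus 3 of the 4 estimates had the opposite sign to the female one, each within about 2 standard errors of 0. Without the males in doubt the values were 0.05 ± 0.46, -0.13 ± 0.31, -0.27 ± 0.22 and -0.19 ± 0.077 (adjusted p = 0.999 for each). The adjustment runs over all tested genes, and the unadjusted p-values in limma were 0.909, 0.69, 0.24 and 0.032. In this fit ENSGACG00000013325 thus lay over 2 standard errors from 0, with the opposite sign to females. Across 16660 genes the female and male effects had an r of -0.0681 and a rho of 0.00201, with 51.4% of signs the same. Over the 3576 abundant genes r was 0.251 and rho 0.232, and without the males in doubt 0.237 and 0.10. Females and males share fathers and sequencing lanes but no fish.

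**Figure D5:**
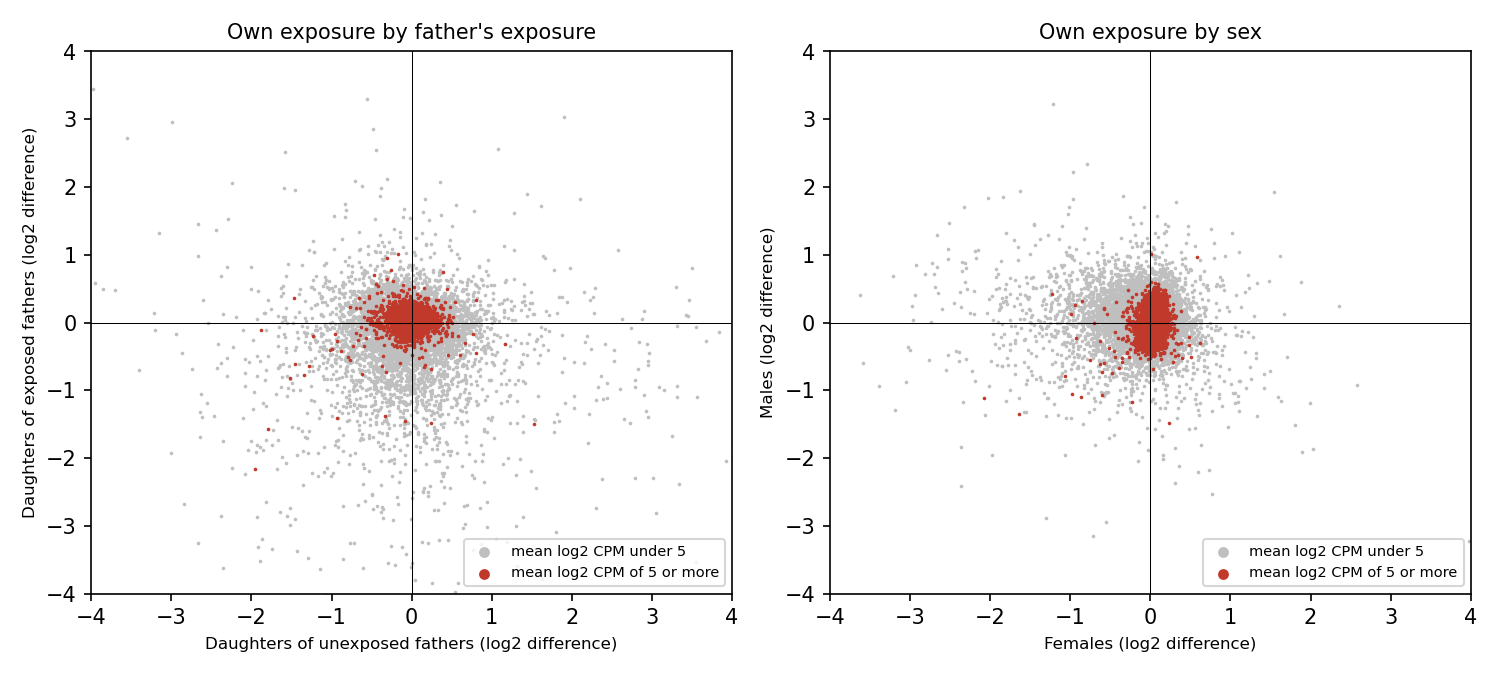
Log2 differences between fish with and without own exposure, 1 point per gene; left, daughters of exposed against daughters of unexposed fathers, right, males against females, with genes of a mean of 5 log2 CPM or more in red. The clouds are centred on 0 without a diagonal trend over all genes (Pearson's r of -0.0394 and -0.0681), and 32 and 2 genes lie outside the axes.

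The spread among fish and the likeness of sisters set the scale for all these comparisons. Within groups, the median standard deviation per gene was 0.254 log2 units among exposed and 0.232 among unexposed females, and 57.1% of genes varied more among exposed fish. For abundant genes the medians were 0.178 and 0.146, with 67.9% wider among exposed fish. The exposed libraries also spanned the wider range of depth, whose part in this was not tested. Correlations between the fish's deviations from their group means averaged 0.0248 over 7 pairs of sisters and -0.0714 over 113 pairs with different fathers. Deviations within a group cancel out, so pairs from the same group tend towards negative correlations by construction. Over pairs from different groups alone, the means were 0.189 for 3 pairs of sisters and -0.00614 for 90 pairs with different fathers. The consensus correlation between sisters in the fit of own exposure was 0.183.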

How the data were processed

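The deposited table holds log2 CPM values that the authors made with edgeR for 17730 genes. Reads had passed through CASAVA 1.8.2, TopHat2 2.0.8 and HTSeq 0.6.1, per the submitters' processing notes. The build named there, NCBIM37, is a mouse name that does not go with stickleback identifiers, so the build and annotation are not given in the sources used here, nor is the use of strand. How reads of overlapping genes or of paralogs were counted is not known here either.

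Above a floor of -6.77, linear values rose in whole steps, which gave whole reads for 100% of values within 0.01 reads. The prior is small, so 1 read can shift a value of a shallow library by much. In the daughter of M20, 0 reads stood at -6.77 log2 CPM and 1 read at -2.74. Fold changes of genes with few reads can therefore be large and are uncertain. Genes above 0 log2 CPM in at least 5 of 29 libraries were tested, 16660 in all. Log2 values of the 16 females were fitted in R 4.3.3 by limma 3.58.1 with a trended prior variance and statmod 1.5.0, with paternal exposure as covariate, father as random block and Benjamini-Hochberg adjustment at 0.05. Effects by paternal exposure came from the 4 female group means, and the sex difference from a fit of all libraries. Daughters of 1 father pair the samples, since the labels name each father, whereas replicate numbers follow deposition order and pair nothing. The p-values set each difference against the spread between these fish, with the variance moderated across genes. For 8 of the 10 fathers all sequenced daughters were in 1 personal condition, so own exposure was compared largely between families. The script was tested on simulated data.

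Named identifiers are the 2 with the smallest p on each side per comparison, among genes with a mean of at least 1 log2 CPM in females. The reference table matched 0 identifiers, so gene lists and cell type markers were not counted. The fish, comparisons and lists were chosen with earlier results of these data known. Alternatives changed the block, covariates, filter, prior, normalization, test, threshold and fish included, and 2 were chosen after seeing the data. The labels' protocols count 1 more paternal only fish, not analysed here.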

Additional observations from a re-analysis of the deposited data

Results flagged for a closer look

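In the paternal only females, the daughter of M42 lay far from the other 4 fish in 2 of the named genes. Her value for ENSGACG00000001118 was 4.713 log2 CPM, where the others lay between 4.886 and 4.947. Her value for ENSGACG00000014793 was 3.208 log2 CPM, where the others lay between 2.552 and 2.664. In both genes her gap to the nearest fish, as a share of the range, exceeded Dixon's 95% limit for 5 values. The shares were 0.74 and 0.828, against a limit of 0.71. Of 62 sets of values checked, these 2 exceeded it, and chance alone gives about 1 in 20. Their number does not exceed that rate, which is only a rough guide because some sets share fish. Both genes had also been named for small p-values in a comparison that used these fish.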

How the results depend on the processing

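The number of genes called for own exposure in females was 0 under all 43 alternatives, with smallest adjusted p-values of 0.0603 to 1, and so was that for the sex difference. Without the daughter of M33 (leaving out her library or her father's daughters, which is the same fish), 10 genes were called in daughters of unexposed fathers and 9 for the dependence on the father's exposure. Over all left-out fish and fathers these counts ranged from 0 to 10 and from 0 to 9. In daughters of exposed fathers, 2 genes were called without the shallowest and deepest female library. None of the genes named by the rule of 2 on each side changed sign or passed the threshold under any alternative run, whereas those named for these omissions did pass there. The former were chosen for small p-values in largely the same fish, so their kept sign is a description and not a separate test. Sizes did change, as for ENSGACG00000013199 in the sex difference, from 2.068 to as low as 0.6586. Without the replicate block for father, 0 genes were called for own exposure and 544 had an unadjusted p under 0.05, against 581 with it. With father as a fixed block there were 0 and 981, and with limma-voom 0 and 1028. For the sex difference the unadjusted count was 562, and 819 without the library labelled male with female values, 389 without the male library that stood apart and 433 without both. The causes of these shifts were not tested. The median standard error for own exposure was 0.387 log2 units in genes with a mean under 1 log2 CPM and 0.0871 in those of 5 or more.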
